A study of Canis lupus familiaris with 6 samples.

Results

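The enzymes that split glucose to pyruvate, rebuild glucose from pyruvate, store and release glycogen, and run the pentose phosphate shunt were followed in MDCKII cells, a canine kidney tubule epithelial line, grown as cysts or as a flat monolayer. The gene list named 49 enzymes, and a probe set was taken where the platform annotation gave it a listed symbol and no other. That rule found 110 probe sets, of which 3 are array controls for GAPDH and were left out of the tests, so that 107 probe sets of 47 genes were tested among 42924 probe sets of 15115 named genes. LDHB and TALDO1 had no probe set under that rule and were not analysed here. In the 3D group (3 arrays) cells had been plated on a thin layer of Matrigel, an extracellular matrix extract, under medium with 2% Matrigel, and in the 2D group (3 arrays) without Matrigel in culture dishes. All RNA was taken 36 h after plating, and no label gives a genetic or drug treatment in either group. MDCKII is 1 established cell line, so that the arrays carry no variation between animals.

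The values are log2 levels per probe set. The arrays of replicates 2 and 3 had medians of 7.07 and 7.08 in 3D and of 7.06 in both 2D arrays, whereas the replicate 1 arrays had medians of 5.26 in 3D and 5.42 in 2D, with 413 and 246 values below 0. Groups were therefore tested with limma on replicates 2 and 3 (n = 2 arrays per group, Benjamini-Hochberg adjusted over 42924 probe sets, threshold 0.05). The replicate 1 difference is given as an untested value on its own scale. Over all named genes its median was -0.11, with 6740 of 15115 above 0, beside a median of -0.01 for replicates 2 and 3. The labels call the replicates biological without saying that they came from separate cultures, so that p-values measure the spread between these arrays. On 3D replicate 2 the median of 24 poly-A spike-in control probe sets was 9.59, against 8.79 on 3D replicate 3 and 8.61 and 8.76 on the 2D arrays of replicates 2 and 3. None of 7 measured kidney epithelial markers lay below the arrays' lower quartiles, and 0 passed the test in either direction. Among markers of other cells, 2 of 6 for fibroblasts, 2 of 4 for endothelium, 2 of 3 for skeletal muscle, 1 of 4 for hepatocytes and 0 of 4 for leukocytes lay below the lower quartile on all 4 arrays, and 0 of these markers passed.

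Glycolysis runs from hexokinase through phosphofructokinase, aldolase and the triose steps to pyruvate kinase and lactate dehydrogenase. Gluconeogenesis shares its reversible steps and bypasses the irreversible ones with pyruvate carboxylase, phosphoenolpyruvate carboxykinase, fructose bisphosphatase and glucose phosphatase. In the kidney, cells of the proximal tubule can make glucose, and the pyruvate dehydrogenase complex, held in check by its kinases, decides whether pyruvate enters the mitochondrial cycle.

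Transcripts of FBP1 and FBP2, at the fructose bisphosphate step, were higher in 3D on all of their probe sets. The other 4 of 6 gluconeogenic genes and 21 of 23 measured glycolytic genes did not pass the test, beside 14014 of 15115 named genes. Of the 47 genes, each read on its brightest probe set by mean level, 6 rose (FBP1, FBP2, FGGY, ALDOC, PDK1 and PYGL), 1 fell (PFKFB3) and 40 did not pass. That is 14.9% of the genes, beside 7.28% of all named genes called in either direction, 4.17% higher and 3.12% lower. By probe set, 13 of 107 were higher and 2 lower, 14% in all, beside 6.61% of the whole table, 3.65% higher and 2.96% lower. All 7 genes had the same sign in the replicate 1 pair, PYGL by only 0.03. The same held for 874 of all 1101 named genes called. These calls need all 4 arrays: every one was lost without any 1 of them, as was every call in the whole table. With all 6 arrays as deposited in 1 fit, 0 member genes passed (limma, 0 at an unadjusted p under 0.05). After quantile normalization of the 6 arrays 0 passed as well (limma, 9 at an unadjusted p under 0.05).

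FBP1 encodes the fructose bisphosphatase of liver and kidney, the enzyme that removes a phosphate from fructose bisphosphate on the way back to glucose. Its level was 11.26 and 11.13 on 3D replicates 2 and 3, against 9.63 and 10.00 on 2D replicates 2 and 3. Both 3D arrays lay above both 2D arrays, at means of 11.2 ± 0.0919 in 3D and 9.82 ± 0.262 in 2D (SD, n = 2 each). The fold was 2.60, a log2 difference of 1.38 (SE 0.148, limma adjusted p = 0.0113). All 3 FBP1 probe sets passed, the other two at 1.17 and 1.11, and the replicate 1 differences were 0.82, 0.83 and 0.71. The brightest probe set read 9.27 in 3D and 8.45 in 2D in replicate 1.

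FBP2 is the muscle type of the same enzyme. It stood at 10.83 and 10.32 on 3D replicates 2 and 3, against 9.10 and 9.25 on the 2D arrays. The groups did not overlap on this probe set or on the other, which read 10.76 and 10.44 in 3D, against 8.67 and 8.70 in 2D. The log2 differences were 1.40 (SE 0.181, limma adjusted p = 0.0156) and 1.92 (SE 0.133, limma adjusted p = 0.00465), or 2.64-fold and 3.77-fold. In replicate 1 the first read 8.33 in 3D and 6.61 in 2D and the other 7.58 in 3D and 6.34 in 2D, differences of 1.72 and 1.24. FBP1 and FBP2 are paralogs that lie side by side, with 0 genes between them in the canine gene table of UU_Cfam_GSD_1.0, and how far either gene's RNA binds the other's probes was not tested.

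**Figure D1:**
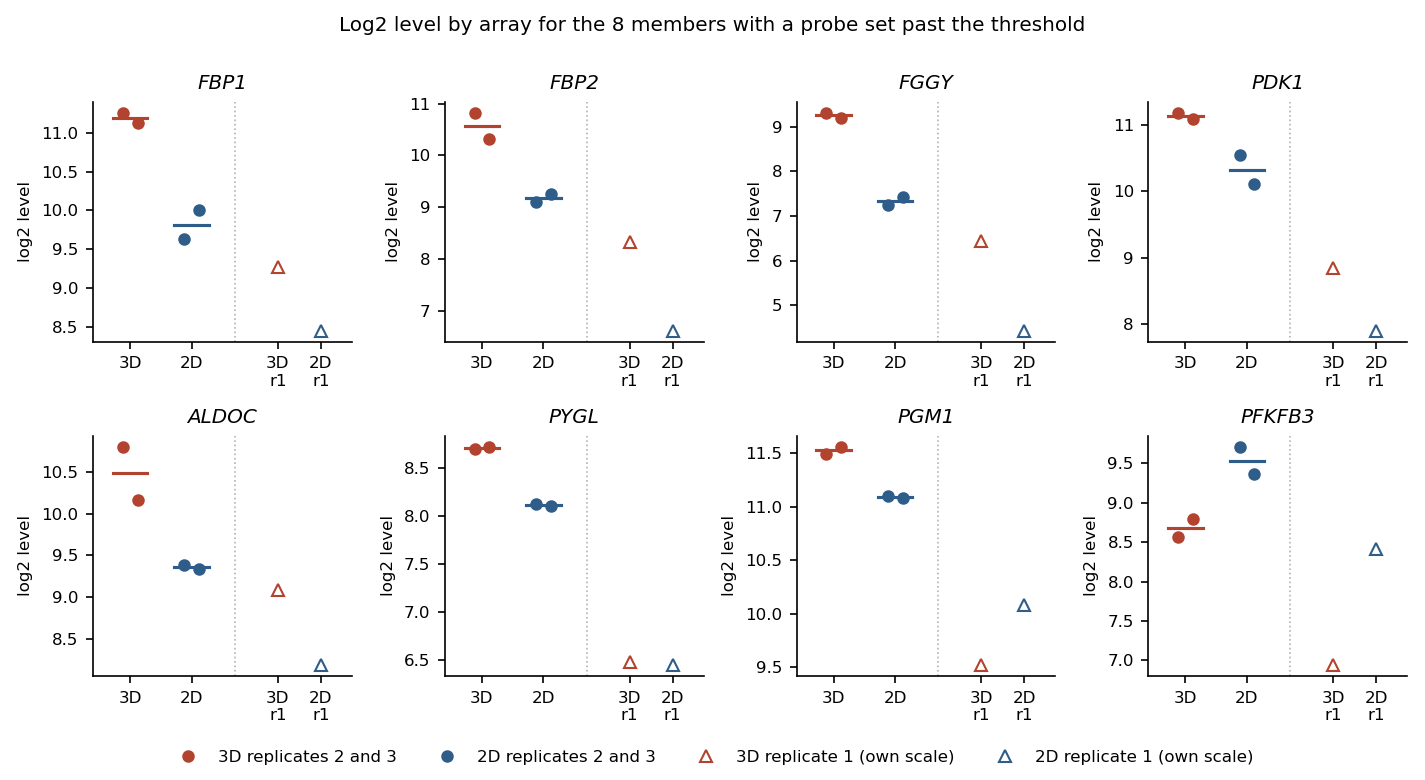
Log2 level (vertical axis, a separate range per gene) of the 8 member genes with at least 1 probe set past the threshold, each on its brightest probe set. Filled circles are 3D and 2D arrays of replicates 2 and 3 with lines at their means, open triangles right of the dotted line are the replicate 1 arrays (r1) on their own scale. In each panel the filled circles of 3D and 2D do not overlap, and only for PFKFB3 do the 3D circles lie below.

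The other gluconeogenic genes did not pass. PCK1, the cytosolic phosphoenolpyruvate carboxykinase, read 5.63 and 5.57 in 3D, against 5.62 and 5.61 in 2D, values below the arrays' lower quartiles (5.64 and 5.67 in 3D, 5.67 and 5.66 in 2D). Its 3 probe sets differed by -0.015, -0.45 and 0.00. Neither its mitochondrial form PCK2 (10.20 and 9.84 in 3D, against 10.09 and 10.35 in 2D) nor pyruvate carboxylase, PC (7.85 and 7.77 in 3D, against 7.57 and 7.73 in 2D), showed a difference past the threshold. On these brightest probe sets PC lay above 2D on both 3D arrays, while the PCK2 groups overlapped. The groups overlapped on the other PC probe set (0.12, -0.88 in replicate 1). The other PCK2 probe sets differed by 0.23 and -0.17. On the first of these both 3D arrays lay above both 2D arrays, with -0.44 in replicate 1. G6PC3, the ubiquitous glucose phosphatase, differed by 0.31 (SE 0.179, limma adjusted p = 0.372) and by -0.55 in replicate 1.

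At the opposing step, the phosphofructokinase genes did not pass, and their differences pointed in different directions. PFKL, the liver subunit, read 11.88 and 11.32 in 3D, against 10.81 and 10.67 in 2D. Its groups did not overlap, and the difference of 0.86 (SE 0.192) had a limma adjusted p of 0.0560, with 0.69, 0.66 and 0.51 on its other 3 probe sets and -0.01 in replicate 1. PFKP, the platelet subunit, read 10.19 and 9.71 in 3D, against 10.52 and 10.54 in 2D, a difference of -0.58 (SE 0.168, limma adjusted p = 0.102) and of -1.29 in replicate 1. PFKM, the muscle subunit, differed by 0.13 (limma adjusted p = 0.513).

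PFKFB3, which makes the sugar phosphate that activates phosphofructokinase and inhibits fructose bisphosphatase, was the member that fell. Its level was 8.56 and 8.79 on 3D replicates 2 and 3, against 9.71 and 9.36 on 2D replicates 2 and 3. The 3D arrays were both lower, 1.82-fold on average, at a log2 difference of -0.86 (SE 0.154, limma adjusted p = 0.0331) and of -1.47 in replicate 1 (6.94 in 3D, 8.41 in 2D). A further probe set passed as well, at -0.57 (SE 0.105, limma adjusted p = 0.0360). The other 2 of its 4 probe sets differed by -0.005 and -0.07, and the mean of the 4 did not pass (-0.37, limma adjusted p = 0.0598). The sister enzymes PFKFB1 (0.15), PFKFB2 (0.09) and PFKFB4 (-0.13) did not pass. TIGAR, not among the 49 enzymes, encodes a phosphatase that acts on the same activator in human cells; 2 of its 3 probe sets fell, by 0.82 and 1.43 on the log2 scale, and its brightest probe set did not pass (-0.64, limma adjusted p = 0.0770). Averaged over its 3 probe sets TIGAR passed (-0.96, limma adjusted p = 0.0247).

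ALDOC, the brain type of aldolase, rose, while ALDOA, the form found in most tissues, did not pass. ALDOC read 10.81 and 10.17 on 3D replicates 2 and 3, against 9.38 and 9.34 on 2D replicates 2 and 3. The 3D arrays lay above the 2D arrays, though 3D replicate 2 was 0.64 above 3D replicate 3. The fold was 2.19 (log2 difference 1.13, SE 0.208, limma adjusted p = 0.0350), with 1.01 on its other probe set and 0.90 (9.08 in 3D, 8.18 in 2D) and 0.99 in replicate 1. Without 3D replicate 2 the difference was 0.81. ALDOA read 13.16 and 12.71 in 3D, against 13.08 and 12.96 in 2D, and these ranges overlap.

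No enolase gene passed. ENO2, the neuronal form, read 9.06 and 8.36 in 3D, against 7.79 and 8.14 in 2D, a difference of 0.75 (SE 0.245, limma adjusted p = 0.135), with 0.61 and 0.32 on its other probe sets and 0.77 in replicate 1. ENO1, the general form, differed by 0.09 (SE 0.101), and ENO3, the muscle form, by 0.02. The ENO2 groups did not overlap, and the difference was 0.40 without 3D replicate 2.

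The remaining glycolytic genes did not pass. Hexokinases trap glucose in the cell as its phosphate. HK2 read 8.03 and 8.40 in 3D, against 8.62 and 8.85 in 2D (difference -0.52, SE 0.158, limma adjusted p = 0.113, -1.59 in replicate 1), with -0.10 on its other probe set. HK1 differed by -0.24 (SE 0.127, -1.30 in replicate 1), and its other probe sets by -0.17 and 0.17. GPI, the glucose phosphate isomerase, read 12.68 and 11.94 in 3D, against 11.97 and 11.80 in 2D; its difference of 0.43 (limma adjusted p = 0.356) became 0.055 without 3D replicate 2. TPI1, PGK1, PGAM1 and PGAM2 differed by 0.005 to 0.16 on their brightest probe sets. Pyruvate kinase, which makes pyruvate, differed by -0.18 for PKM (SE 0.180) and by 0.43 for PKLR (SE 0.146, limma adjusted p = 0.146, -0.76 in replicate 1). LDHA, which turns pyruvate to lactate, read 13.75 and 13.93 in 3D, against 14.14 and 14.07 in 2D. Its 3D arrays were both lower, by 0.27 on the log2 scale on average (SE 0.111, limma adjusted p = 0.223), and by contrast 0.14 higher in replicate 1.

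GAPDH, often used as a loading control, was read by a single tested probe set at 7.66 and 7.49 in 3D, against 7.31 and 7.06 in 2D (difference 0.39, SE 0.130, limma adjusted p = 0.140). The array's own GAPDH control probe sets, far brighter, gave 14.72 and 14.58 in 3D, against 14.61 and 14.53 in 2D at the 3' end. At the 5' end they gave 14.41 and 14.18 in 3D, against 14.41 and 14.37 in 2D. The member counts and medians use the tested probe set alone. Between 3D and 2D the control differed by 0.08 at the 3' end and by -0.095 at the 5' end. The 3' minus 5' difference of that control, a measure of RNA integrity, was 0.31 and 0.40 in 3D, against 0.20 and 0.16 in 2D. For a further GAPDH control it was 0.16 and 0.12 in 3D, against 0.14 and 0.13 in 2D, and for the actin control 0.57 and 0.76 in 3D, against 0.71 and 0.89 in 2D. Between 3D and 2D these controls did not run in one direction on replicates 2 and 3. In replicate 1 the 3' minus 5' difference was larger, at 1.47 in 3D and 1.67 in 2D for the first GAPDH control. There it was 0.50 in 3D and 0.52 in 2D for the further GAPDH control, and 2.90 in 3D and 2.17 in 2D for actin. For an ef1a control it was 8.17 and 8.10 in 3D, against 8.07 and 8.30 in 2D. In replicate 1 that control gave 11.27 in 3D and 11.22 in 2D. The part of these controls in the results was not tested.

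**Figure D2:**
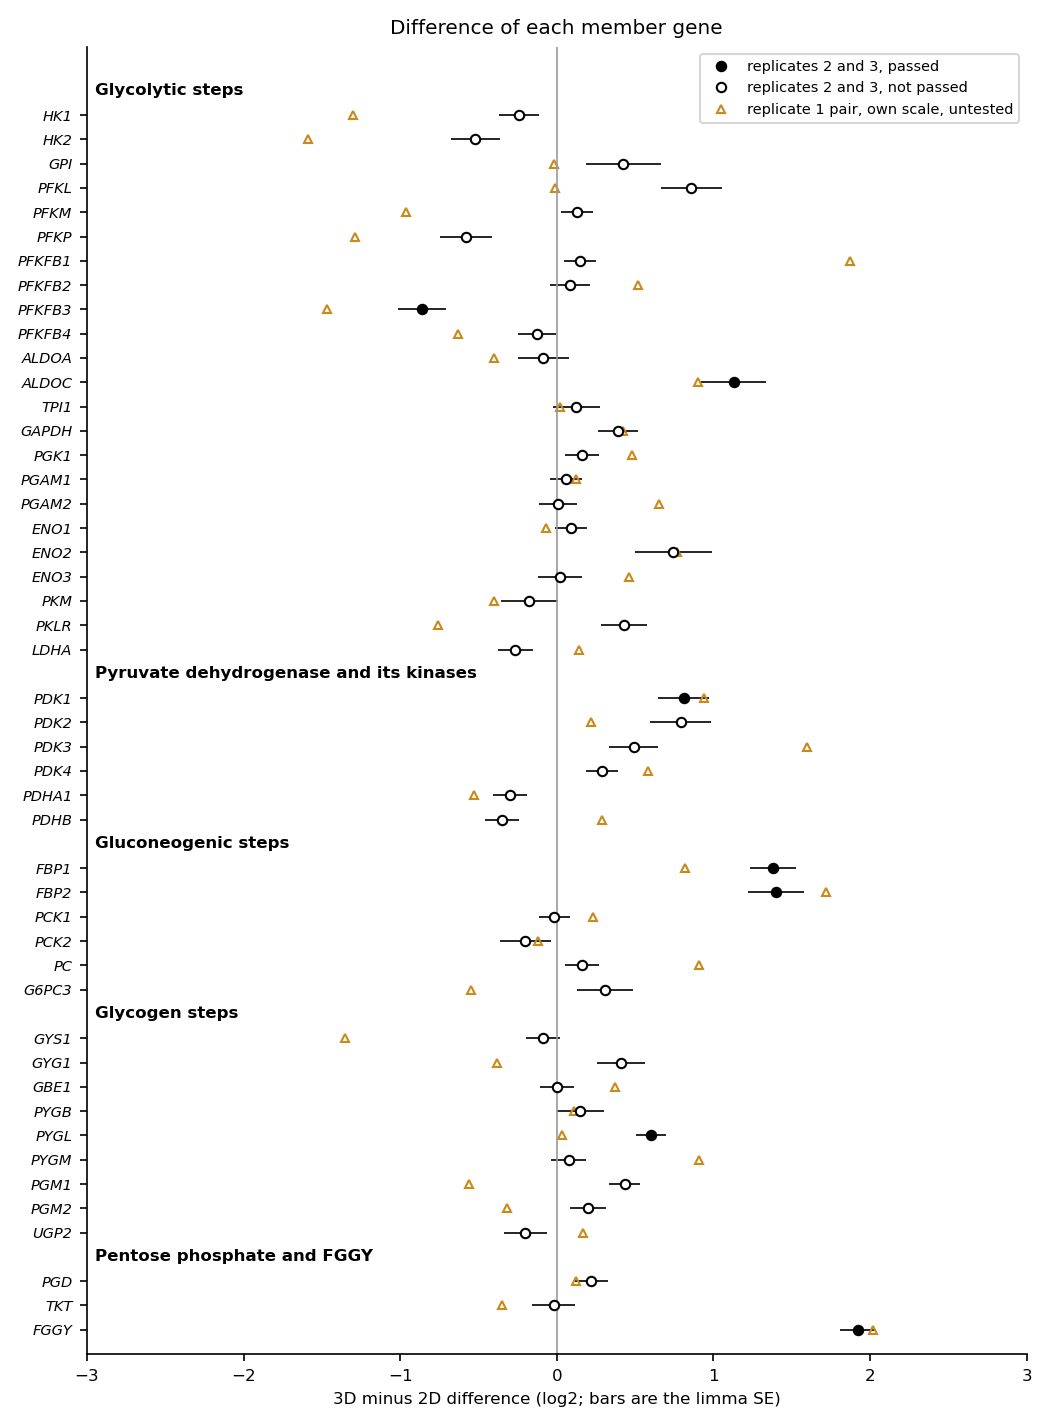
The 3D minus 2D difference in log2 level (horizontal axis) of all 47 measured member genes, grouped by step, with the limma SE as bars for replicates 2 and 3 (n = 2 arrays per group). Filled circles passed at a limma adjusted p under 0.05, open circles did not, and triangles are the untested replicate 1 differences; the filled circles right of 0 are ALDOC, PDK1, FBP1, FBP2, PYGL and FGGY, and the filled circle left of 0 is PFKFB3.

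Over all named genes, 7.28% were called in either direction, 4.17% higher and 3.12% lower. Of the 23 measured glycolytic genes, 1 rose, 1 fell and 21 did not pass, with a median difference of 0.09. That count is near the share over all named genes. Of the 6 gluconeogenic genes 2 rose and 4 did not pass (median 0.24), and of the 9 glycogen genes 1 rose and 8 did not pass (median 0.15), beside a median of -0.01 over all named genes. The gluconeogenic median was 0.15 above the glycolytic one, by 0.33 in the replicate 2 pair, 0.03 in the replicate 3 pair and 0.54 in replicate 1. The glycogen median was 0.07 above the glycolytic one. The spread of a class median between arrays of a group was 0.08 for the glycolytic, 0.15 for the gluconeogenic and 0.06 for the glycogen genes, so that the class medians did not stand apart by clearly more than this spread, and no test was made of them.

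More member genes had both 3D arrays above both 2D arrays than the reverse, 22 against 7 of 47. These are 46.8% and 14.9%, beside 25.8% and 27.5% of all named genes. In 15 of the 22 and 5 of the 7 the replicate 1 pair had the same sign, beside 2274 of 3903 and 2614 of 4156 over all named genes. The members were also higher on 3D replicate 2 than on 3D replicate 3 in 35 of 47 cases (74.5%, beside 49.5% of all named genes), and their median difference was 0.19 in the replicate 2 pair and 0.05 in the replicate 3 pair. The brighter spike-in controls of 3D replicate 2 move with this, and their part in it was not tested.

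Pyruvate dehydrogenase kinases switch off the pyruvate dehydrogenase complex by phosphorylating its E1 subunit. PDK1 was higher in 3D, at 11.18 and 11.08 on replicates 2 and 3, against 10.54 and 10.10 on the 2D arrays. The groups did not overlap, and the fold was 1.75 (log2 difference 0.81, SE 0.161, limma adjusted p = 0.0431). In replicate 1 it read 8.84 in 3D and 7.90 in 2D, a difference of 0.94. Its other probe set differed by 0.33 (SE 0.109, limma adjusted p = 0.143, 0.97 in replicate 1), and the mean of both passed (0.57, limma adjusted p = 0.0398).

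The sister kinases did not pass. PDK2 read 10.44 and 9.91 in 3D, against 9.26 and 9.51 in 2D (difference 0.79, SE 0.194, limma adjusted p = 0.0704). PDK3 read 10.97 and 10.55 in 3D, against 10.26 and 10.28 in 2D (difference 0.49, SE 0.155, limma adjusted p = 0.124), with 0.83 (limma adjusted p = 0.0542) on its other probe set. PDK4 differed by 0.29 at levels below the arrays' lower quartiles. For all 4 kinases both 3D arrays lay above both 2D arrays. Over all named genes this held for 25.8%, and the reverse for 27.5%. The replicate 1 differences were 0.94, 0.22, 1.60 and 0.58 for PDK1, PDK2, PDK3 and PDK4. The E1 subunits of the complex lay lower, PDHA1 at 11.98 and 12.14 in 3D, against 12.37 and 12.35 in 2D (difference -0.30, SE 0.107, limma adjusted p = 0.162), and PDHB at 11.57 and 11.71 in 3D, against 12.05 and 11.93 in 2D (difference -0.35, SE 0.110, limma adjusted p = 0.122). Neither passed, and in replicate 1 PDHA1 differed by -0.53 and PDHB by 0.29. Of these 6 genes 1 rose and 5 did not pass, with a median difference of 0.39. Over all named genes 4.17% were called higher.

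Of the glycogen genes, PYGL rose and PGM1 rose on some of its probe sets. PYGL, the liver type of glycogen phosphorylase, which frees glucose phosphate from glycogen, read 8.70 and 8.72 in 3D, against 8.12 and 8.10 in 2D. The arrays of a group agreed closely, and the fold was 1.52 (log2 difference 0.60, SE 0.0967, limma adjusted p = 0.0256). In replicate 1 it read 6.48 in 3D and 6.45 in 2D, a difference of 0.03. A further PYGL probe set rose 1.77-fold (0.83, limma adjusted p = 0.0282, 0.07 in replicate 1), the other 2 of its 4 probe sets differed by 0.13 and 0.04, and the mean of the 4 did not pass (0.40, limma adjusted p = 0.0517). PYGB, the brain type, differed by 0.15 (SE 0.148) and PYGM, the muscle type, by 0.08.

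PGM1, the phosphoglucomutase that links glycogen to glycolysis, rose on 2 of its 5 probe sets. These read 11.67 and 11.49 in 3D, against 11.00 and 10.98 in 2D (difference 0.59, SE 0.110, limma adjusted p = 0.0357, 0.39 in replicate 1), and 11.61 and 11.47 in 3D, against 10.92 and 10.84 in 2D (difference 0.66, SE 0.107, limma adjusted p = 0.0258, 0.57 in replicate 1). Neither pair of groups overlapped. In replicate 1 the first read 10.78 in 3D and 10.39 in 2D, and the other 9.87 in 3D and 9.30 in 2D. The brightest PGM1 probe set differed by 0.44 (SE 0.0986, limma adjusted p = 0.0582) without passing, and by -0.56 in replicate 1. The mean of the 5 did not pass either (0.42, limma adjusted p = 0.0538).

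The genes of glycogen building did not pass. Glycogen synthase GYS1 differed by -0.09 (SE 0.108), the primer protein GYG1 by 0.41 (SE 0.152, limma adjusted p = 0.175, -0.38 in replicate 1) and the branching enzyme GBE1 by 0.00 (SE 0.108). UGP2, which makes the UDP-glucose used by the synthase, read 11.02 and 11.07 in 3D, against 11.42 and 11.07 in 2D. On this brightest probe set the groups met (difference -0.20, SE 0.140). The others of its 4 probe sets differed by -0.42, -0.015 and -0.31 and did not pass. On the first and last of these both 3D arrays lay below both 2D arrays, while replicate 1 gave 0.28 and 0.25. PGM2 differed by 0.20 (SE 0.114, limma adjusted p = 0.364).

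FGGY, a carbohydrate kinase that in human acts on ribulose and is no step of glycolysis, had the largest difference among the probe sets that represent the 47 genes. It read 9.32 and 9.20 on 3D replicates 2 and 3, against 7.25 and 7.43 on 2D replicates 2 and 3. The groups lay far apart, at a fold of 3.78 (log2 difference 1.92, SE 0.115, limma adjusted p = 0.00378), and replicate 1 gave 2.02 (6.45 in 3D, 4.43 in 2D). Its other 2 probe sets differed by 0.22 (SE 0.140) and 0.03 (SE 0.0974) and did not pass, while the mean of the 3 did (0.72, limma adjusted p = 0.0133). In the pentose phosphate shunt, which supplies NADPH and ribose, PGD differed by 0.22 (SE 0.105, limma adjusted p = 0.279) and transketolase, TKT, by -0.02 (SE 0.138).

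**Figure D3:**
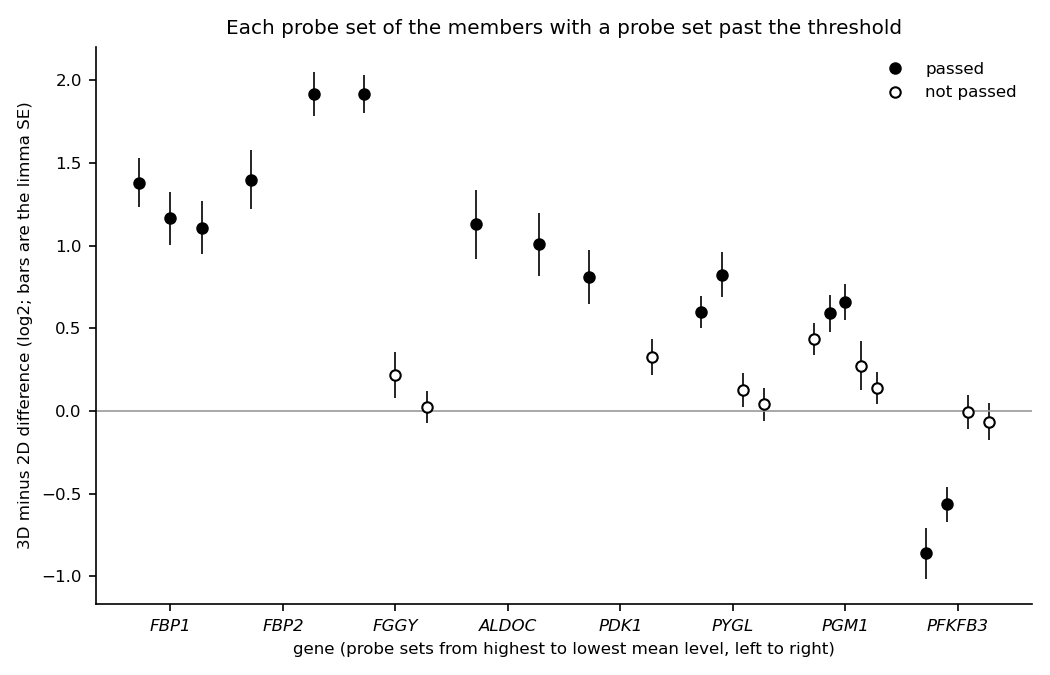
The 3D minus 2D difference in log2 level (vertical axis, bars are the limma SE, n = 2 arrays per group) of every probe set of the 8 genes with a probe set past the threshold, filled where it passed. All probe sets of FBP1, FBP2 and ALDOC passed, whereas FGGY, PDK1, PYGL, PGM1 and PFKFB3 each had at least 1 that did not.

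The genes around these enzymes, taken from lists chosen with earlier results of these data known, place the members in context. Their 12 calls, like those of the members, were 0 without any 1 array (limma, 12 at an unadjusted p under 0.05). Of 17 genes of sugar, lactate and pyruvate transport, 3 rose, 1 fell and 13 did not pass. Over all named genes, 7.28% were called in either direction, 4.17% higher and 3.12% lower. SLC2A1, the basal glucose transporter, fell on all 3 of its probe sets. It read 11.98 and 12.13 on 3D replicates 2 and 3, against 13.01 and 13.06 on 2D replicates 2 and 3, and the groups did not overlap. The 2D level was 1.97-fold that of 3D (log2 difference -0.98, SE 0.107, limma adjusted p = 0.0114), with -1.13 and -1.26 on the other probe sets and -1.53, -1.36 and -2.25 in replicate 1.

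SLC37A4, which carries glucose phosphate into the endoplasmic reticulum for the last step of glucose release, rose. Its level was 10.17 and 9.45 in 3D, against 8.34 and 8.48 in 2D. The 3D arrays lay above the 2D arrays and 0.72 apart from each other (log2 difference 1.40, SE 0.232, limma adjusted p = 0.0275, 0.86 in replicate 1, and 1.04 without 3D replicate 2), and its other probe set passed at 1.32. G6PC1, the glucose phosphatase of liver and kidney that acts after this carrier, read 4.47 and 4.40 in 3D, against 4.36 and 4.37 in 2D, below the arrays' lower quartiles. The mitochondrial pyruvate carrier genes MPC1 (0.65, SE 0.128, limma adjusted p = 0.0429) and MPC2 (0.58, SE 0.104, limma adjusted p = 0.0331) rose, on 2 of 3 and 1 of 2 probe sets, with 0.72 and 1.30 in replicate 1. The other MPC1 probe set that passed (0.61, limma adjusted p = 0.0258) differed by -0.21 in replicate 1. The lactate carriers SLC16A1 (-0.23) and SLC16A3 (0.50, limma adjusted p = 0.0970) did not pass.

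Of 41 other enzymes and regulatory subunits of the same routes, 3 rose, 0 fell and 38 did not pass, each on its brightest probe set. That count is near the 7.28% of all named genes called in either direction. TIGAR, described above, belongs to this list, as does RPE. Of the 4 RPE probe sets 1 passed as lower (-0.46, limma adjusted p = 0.0483). The mean of the 4 did not pass (-0.28, limma adjusted p = 0.122). PPP1R3C, which brings protein phosphatase 1 to glycogen, rose most in this list. It read 9.99 and 9.79 in 3D, against 7.20 and 7.16 in 2D, 6.54-fold higher (log2 difference 2.71, SE 0.113, limma adjusted p = 0.00145), with 2.16 on its other probe set and 3.81 and 1.77 in replicate 1. The phosphorylase kinase subunits PHKB (0.65, SE 0.103, limma adjusted p = 0.0246, 0.69 in replicate 1) and PHKA1 (0.61, SE 0.126, limma adjusted p = 0.0462) rose on 1 of 2 probe sets each. PHKA1 differed by -1.29 in replicate 1 and did not pass after median centring (limma adjusted p = 0.0523), and with both probe sets averaged neither gene passed (limma adjusted p of 0.0718 for PHKB and 0.110 for PHKA1).

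Among 25 regulators 1 rose, 1 fell and 23 did not pass. That count is also near the 7.28% of all named genes called in either direction. TXNIP, which lowers glucose uptake and is a target of the glucose-sensing factors MondoA and ChREBP, read 13.50 and 12.48 in 3D, against 9.13 and 8.92 in 2D, and MYC, which can drive glycolytic genes, read 9.77 and 9.97 in 3D, against 10.97 and 11.11 in 2D. Neither pair of groups overlapped. MLXIPL, the gene for ChREBP, rose on 1 of its 3 probe sets (7.34 and 7.22 in 3D, against 6.26 and 6.21 in 2D) and did not pass on its brightest one (0.055), while averaged over its probe sets it passed (0.54, limma adjusted p = 0.0278). Of 22 genes of the hypoxia response, a program that also raises glycolytic enzymes, 0 rose and 3 fell: VEGFA (-1.52), P4HA2 (-0.62) and DDIT4 (-1.11), with limma adjusted p of 0.0121 to 0.0426. Over all named genes 3.12% were called lower. The hypoxia list's median was -0.19, beside -0.01 over all named genes, and HIF1A did not pass (-0.23, SE 0.129).

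**Figure D4:**
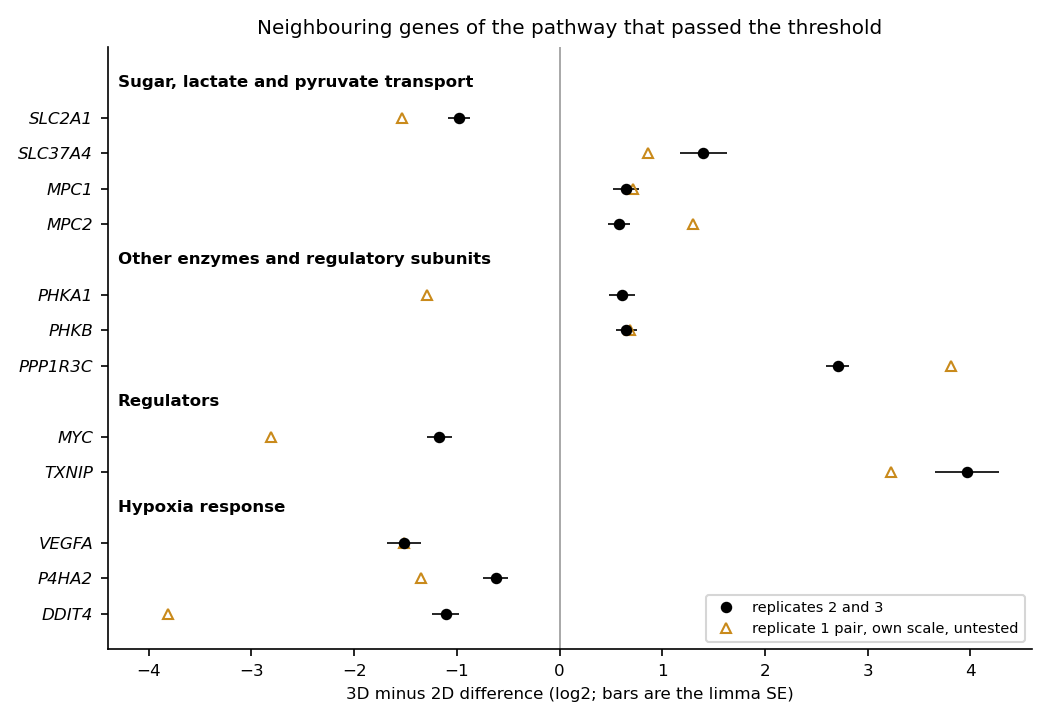
The 3D minus 2D difference in log2 level (horizontal axis) of the 12 genes of the surrounding lists that passed on their brightest probe set, with the limma SE as bars (n = 2 arrays per group) and the untested replicate 1 differences as triangles. TXNIP and PPP1R3C lie farthest right of 0, and for PHKA1 the triangle lies on the other side of 0 from the circle.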

How the data were processed

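The authors deposited 1 log2 value per probe set and array. RMA, which corrects background, quantile normalizes and summarizes probes, and limma are named, without versions, per the submitters' processing notes. No source used here says how the replicate 1 columns came to another scale. None but the canine gene table of UU_Cfam_GSD_1.0 names a genome build, and no positions are given. Arrays of replicates 2 and 3 correlated with each other at a Pearson's r of 0.983 to 0.997 across probe sets, and with replicate 1 at 0.861 to 0.872.

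Of 43035 probe sets, 111 controls were left out. The annotation gave 1 symbol for 29254 probe sets, several for 439, from which none was named (9 of these hold a member), and none for 13231. The canine gene table of UU_Cfam_GSD_1.0 held the Entrez identifier of 27680 probe sets, and 0 symbols differed from it. Tests were two-sided and used limma 3.58.1 (lmFit, eBayes) under R 4.3.3, without a filter, since the table holds no detection calls and depth has no meaning for arrays, whose number limits the precision. Joins, means, SDs and plots were made with numpy 2.4.6, pandas 2.3.3 and matplotlib 3.10.9 under Python 3.11.15. The fit was tested on simulated data.

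A gene is represented by its brightest probe set, the one of highest mean on the 4 arrays tested. Values in every array are given for each member with a probe set that passed (on the brightest that passed). Of each surrounding list, up to 6 genes that passed are named, without their replicate 1 levels. TIGAR, RPE, MLXIPL, G6PC1, HIF1A and the lactate carriers were chosen after the values were seen. The same holds for array values of members that did not pass. The members and lists were chosen with earlier results of these data known. The alternatives were all 6 arrays on 3 scalings, a replicate block, other normalizations and priors, a filter on dim probe sets, averaging each gene over its probe sets, and leaving out each array.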

Additional observations from a re-analysis of the deposited data

How the results depend on the processing

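The 7 member genes that passed kept their call and direction when the 4 arrays were quantile normalized again or median centred, with trend and robust priors, and without dim probe sets (limma adjusted p 0.00211 to 0.0472). With each gene averaged over its probe sets 5 passed, PFKFB3 and PYGL being lost. Without any 1 array, 0 probe sets of the table passed (limma, 4683 to 10892 at an unadjusted p under 0.05), with 0 member probe sets (18 to 46) and 0 member genes (9 to 21); the lone array of a group is then assumed to vary like the others. The class medians then ranged from 0.005 to 0.14 (glycolytic), 0.30 to 0.48 (pyruvate dehydrogenase and its kinases), 0.09 to 0.38 (gluconeogenic), 0.085 to 0.22 (glycogen) and 0.15 to 0.29 (pentose phosphate and FGGY). Calls in the whole table, member probe sets and member genes were 0, 0 and 0 with all 6 arrays as deposited (105, 0 and 0 at an unadjusted p under 0.05), 2, 0 and 0 after quantile normalization (1775, 16 and 9) and 2, 0 and 0 after median centring (1424, 14 and 9). The pyruvate dehydrogenase median was 0.49, 0.51 and 0.54 in these 3 fits, and the pentose phosphate median 0.13 after quantile normalization and 0.12 with averaged probe sets. With the replicate number as a block on replicates 2 and 3, the calls were 0, 0 and 0. At an unadjusted p under 0.05 they were 8325, 32 and 17 (limma). With the block on all 6 quantile normalized arrays the calls were 0, 0 and 0 as well (limma, 3517, 20 and 10 at an unadjusted p under 0.05). In that fit the median was 0.51 for pyruvate dehydrogenase with its kinases and 0.13 for the pentose phosphate genes with FGGY. Deviations from the group means correlated at 0.0013 between same-numbered arrays of replicates 2 and 3. No deviation shared across the table was thus seen, and the labels do not say whether same-numbered arrays were prepared together. Over all 6 arrays the correlations were 0.53 to 0.61, where replicate 1 has its own scale. Of the 12 surrounding genes, PHKA1 reversed with all 6 arrays as deposited (-0.0233). The fits without an array or with the block had fewer arrays or fewer residual degrees of freedom. The cause of these changes was not tested.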
